A study of Mus musculus with 2 samples.

Results

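Yap1, Wwtr1 (which encodes TAZ), Tead1, Piezo1, Ccn1, Ccn2, Ankrd1, Amotl2, Lats2 and Axl are genes of mechanical signalling, and these 10 of the 32285 genes in the count matrices were read in mouse bowel and mesenteric adipose tissue. They were picked by symbol, as genes of the pathway and with earlier results of these data known. All 10 are accounted for here whatever their values. The single-cell libraries are 2, one made after colotomy, an incision of the colon, and the other after a sham operation. Both groups are B6/C57 mice of 8 to 12 weeks, sampled on postoperative day 14. Each library is a single pool of cells from bowel and mesenteric fat, digested at 37 degrees and marked with hashtag antibodies, and the labels do not give the number or the sex of the animals. A group is therefore 1 library, no test of the operation can be made, and every interval below is a 95% interval that covers counting error alone.

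YAP and TAZ are transcriptional coactivators that have no DNA-binding domain of their own and act on genes through the TEAD factors, of which Tead1 is a member. The kinases LATS1 and LATS2 phosphorylate YAP and TAZ and keep them in the cytoplasm, while stretch, a stiff matrix and actomyosin tension favour their entry into the nucleus. PIEZO1 is a cation channel that opens when the membrane is stretched. CCN1 and CCN2 are secreted matricellular proteins, ANKRD1 is an ankyrin repeat protein of muscle, AMOTL2 is an angiomotin that binds YAP, and AXL is a receptor tyrosine kinase for GAS6. The genes of all 5, and Lats2 itself, are known YAP and TAZ targets, so that Amotl2 and Lats2 also act as feedback inhibitors.

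The colotomy library held 9246 cells after filtering, with a median of 778 UMIs (unique molecular identifiers, each counted as 1 RNA molecule) and 8728608 UMIs in all. The sham library held 42143 cells, a median of 1328 and 70442705 UMIs. Clusters were built without the 10 genes and without the pathway lists given further down, and then took class names from markers. Fibroblast-like cells numbered 3630 and 5528 in the colotomy and sham library, mesothelial-like 189 and 768, vascular endothelial-like 172 and 1195, smooth muscle-like 92 and 400, epithelial-like 422 and 1698, and macrophage-like 1179 and 3435. As the names came from these markers, their presence in a class is no check of its name. Markers at least 2-fold the level in the other kept cells of the library were 10 of 12 in colotomy mesothelial-like cells. In colotomy epithelial-like cells they were 14 of 15, and in the other sums of these classes all markers reached that fold. The smooth muscle-like cluster also held pericyte genes such as Notch3 and Rgs5 among its leading genes. The main goblet-like cluster, of 2012 colotomy and 1496 sham cells, had 9 epithelial markers beside 6 goblet ones. In a finer clustering (resolution 2) the goblet-like cluster held 1029 and 763 cells. An epithelial-like cluster led by Clca3b, Dmbt1 and Kcne3 held 807 and 627 there. The goblet-like class below may therefore hold other epithelial cells too. Of the barcodes, 108 kept ones occur in both libraries, and the doublet caller Scrublet marked 0 in either library, which at these cell numbers means that it did not work, so that doublets remain in. Of the kept barcodes, 769 and 1998 were called positive for both hashtags, and the values without them are among the alternatives. The negative and positive groups fitted to a hashtag hardly separated. Their means lay from 0.173 (sham, hashtag 2) to 0.975 (colotomy, hashtag 1) standard deviations of the lower group apart. These calls therefore do not mark doublets. Hashtag 1 exceeded hashtag 2 in 99.1% of colotomy cells and in 1.86% of sham cells, so that cells could not be split into bowel and fat. A UMI of Xist, RNA of female cells, was found in 1659 colotomy and 27 sham cells, so that the operation and a difference in the sex of the pooled animals cannot be told apart.

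Levels are given as CPM, the UMIs of a gene scaled to the same total of UMIs in every class, and compared between classes and libraries within a gene. Yap1 (ENSMUSG00000053110, chromosome 9, 7931999 to 8004596 on the minus strand, GRCm38) was, among the 6 classes named above, lowest in macrophage-like cells of both libraries. In the sham library its level was 49.5 CPM in smooth muscle-like (34.1 to 69.6), 39.2 in mesothelial-like, 27.8 in fibroblast-like, 19.7 in vascular endothelial-like, 16.9 in epithelial-like and 1.57 in macrophage-like cells (0.782 to 2.80). Neighbours in that order had overlapping intervals except for the step from epithelial-like to macrophage-like cells. In the colotomy library the levels in the same classes were 82.5, 24.8, 45.8, 29.2, 23.4 and 6.08 CPM, and all neighbouring intervals overlapped.

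Wwtr1 (ENSMUSG00000027803, chromosome 3, 57455649 to 57575910, minus strand) led, among the 6 classes, in vascular endothelium. It stood at 116 CPM there in the sham library (101 to 132) and at 248 CPM in the colotomy library (172 to 346.5), in both above the next of the 6 without overlap. Mesothelial-like cells held 65.8 and 86.7 CPM in the sham and colotomy library, fibroblast-like cells 57.1 and 81.6, and the smooth muscle-like class 52.5 and 68.7, with overlapping intervals among the 3. Epithelial-like cells had 6.80 and 9.35 CPM and macrophage-like cells 2.42 and 10.1 CPM. Both lay below the 3 without overlap in the sham library, while in the colotomy library the interval of epithelial-like cells met that of smooth muscle-like cells. Lymphatic endothelial-like cells had 123 and 230.3 CPM, in the sham library more than the vascular ones.

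Tead1 (ENSMUSG00000055320, chromosome 7, 112679318 to 112906807, plus strand) was high in mesothelium and muscle. Sham levels were 120 CPM in mesothelial-like (102 to 139) and 114 in smooth muscle-like cells (89.9 to 143), then 70.5 in fibroblast-like cells, apart from both. Vascular endothelial-like cells at 41.5 and epithelial-like cells at 29.7 overlapped each other, and macrophage-like cells had 3.56 CPM. Colotomy levels in these classes were 161, 165, 130, 65.6, 49.1 and 21.3 CPM. Tead1, like Piezo1 and Lats2, overlaps a small predicted gene on its own strand, so that a few reads could belong to the neighbour.

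**Figure D1:**
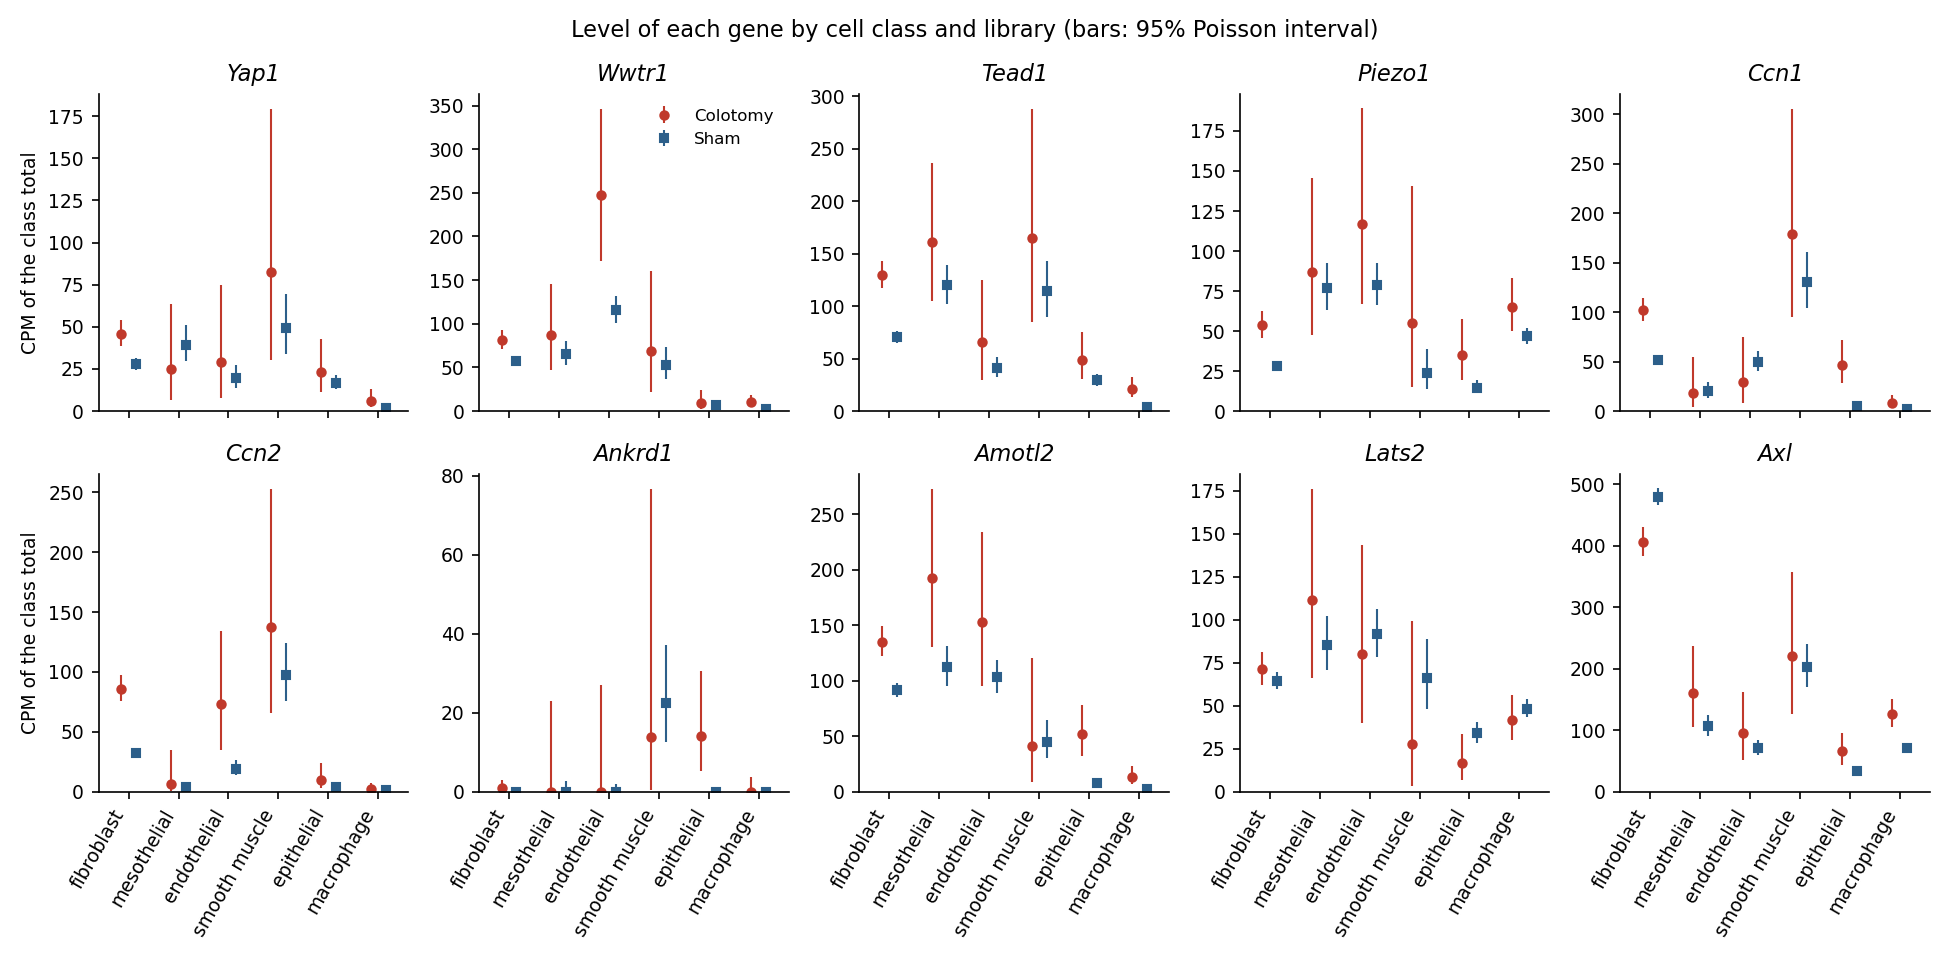
Level of each of the 10 genes in CPM of the class total (vertical axes, linear, 1 scale per gene) by cell class (horizontal axes) in the colotomy (circles) and sham library (squares), with exact Poisson intervals as bars. Of the 6 classes plotted, Wwtr1 is highest in vascular endothelial-like cells and Axl in fibroblast-like cells of both libraries, while Ccn1, Ccn2 and Ankrd1 of the sham library are highest in smooth muscle-like cells.

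The balance of both coactivators differed more between classes than between libraries. Of the Yap1 and Wwtr1 UMIs together, Yap1 made up 87.3% in goblet-like cells of the sham library (81.5% to 91.8%) and 85.5% in those of the colotomy library (78.0% to 91.2%). In epithelial-like cells it was 71.3% and 71.4%, in the smooth muscle-like class 48.5% and 54.5%, and in mesothelial-like cells 37.3% and 22.2%. Fibroblast-like cells had 32.8% (29.6% to 36.1%) and 36.0% (31.1% to 41.0%). Lymphatic endothelial-like cells had 17.6% and 22.2%, and the vascular endothelial-like class 14.5% (10.4% to 19.4%) and 10.5% (2.94% to 24.8%). In each of these 7 classes the intervals of the libraries overlapped, and epithelium, fibroblasts and vascular endothelium were apart from one another in both libraries. How well each transcript is captured also sets such a share, so it is read here between classes and not as the ratio of the proteins.

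**Figure D2:**
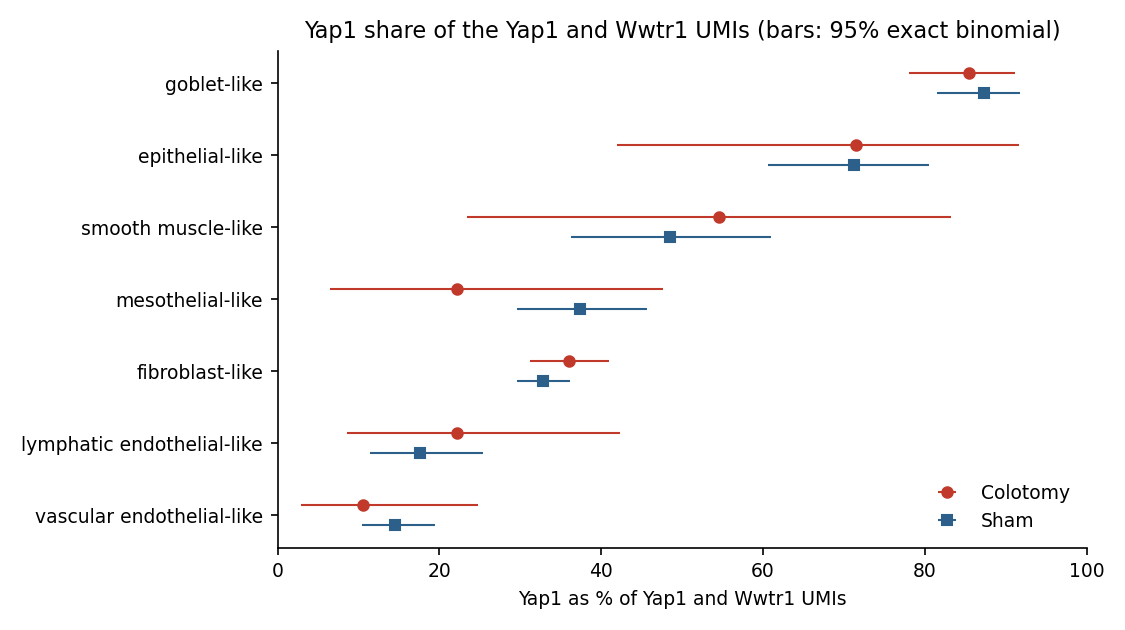
Yap1 UMIs as a percent of Yap1 and Wwtr1 UMIs (horizontal axis) in 7 cell classes (vertical axis) of the colotomy (circles) and sham library (squares), with exact binomial intervals as bars. The share runs from 87.3% in goblet-like to 14.5% in vascular endothelial-like cells of the sham library, and the libraries overlap within each class.

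Piezo1 (ENSMUSG00000014444, chromosome 8, 122481698 to 122551329, minus strand) was, among the 6 classes, highest in the cells that line vessels and the peritoneum. In the sham library it stood at 78.7 CPM in vascular endothelial-like (66.5 to 92.4) and 77.0 CPM in mesothelial-like cells (63.3 to 92.8). Macrophage-like cells followed at 46.9 CPM (41.9 to 52.2), apart from both and from fibroblast-like cells at 28.0 CPM. Smooth muscle-like cells had 24.0 CPM and epithelial-like cells 14.7 CPM. Colotomy levels were 117 CPM in vascular endothelial-like, 86.7 in mesothelial-like, 64.9 in macrophage-like, 55.0 in smooth muscle-like, 53.5 in fibroblast-like and 35.1 in epithelial-like cells, with all neighbours overlapping. Lymphocyte-like cells (T and B together), taken as a measure of background, had 25.6 CPM of Piezo1 in the sham library (23.7 to 27.7) and 64.8 CPM in the colotomy library (26.0 to 133, from 7 UMIs in 158 cells). Piezo1 of fibroblast-like cells was thus near the level in lymphocyte-like cells of the same library, 28.0 against 25.6 CPM and 53.5 against 64.8 CPM. Goblet-like cells had less than either, 13.9 CPM in the sham library (11.0 to 17.3) and 24.6 CPM in the colotomy library. The origin of these UMIs in lymphocyte-like cells was not tested.

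For the targets, the stretch of DNA before the start of the gene was read from the RefSeq promoter table of GRCm38.p6, in which 8 of the 10 genes matched by symbol, all but Tead1 and Ccn2. The motif searched for TEAD was GGAATG on either strand, from 250 bases before to 50 after the start. It occurred in 7 of the 8 genes (Yap1, Wwtr1, Ccn1, Ankrd1, Amotl2, Lats2 and Axl), against 14.7% of 32841 promoters of the same length. A gene counted if any of its promoters matched, whereas 14.7% is a share of promoters. Wwtr1 and Lats2 had 2 promoters each, and the second of Lats2 had no match. Promoters of 1 chromosome, which holds none of the 8 genes, were left out of the 32841. The genes were chosen as known pathway genes, and a match in letters is not a site. The AP-1 motif TGACTCA was in 0 of the 8 (5.2% of all promoters), the serum response CArG box in 0 (1.63%), and the TATA box TATAAA in 2, Ccn1 and Piezo1 (13.6%). The 250 bases before the start are shown for 3 target genes, as the place of the TEAD match in a known target, with TEAD and TATA matches in capitals. In Ccn1 (chr3:145649986-145650235, minus strand) the TEAD match, on the opposite strand and so read as CATTCC, begins 103 bases before the start and the TATA box 25 bases before it. In Ankrd1 (chr19:36119845-36120094, minus strand) TEAD matches begin at 210 and 123 bases, and in Amotl2 (chr9:102717554-102717803, plus strand) 1 begins at 65 bases, again on the opposite strand.
Ccn1: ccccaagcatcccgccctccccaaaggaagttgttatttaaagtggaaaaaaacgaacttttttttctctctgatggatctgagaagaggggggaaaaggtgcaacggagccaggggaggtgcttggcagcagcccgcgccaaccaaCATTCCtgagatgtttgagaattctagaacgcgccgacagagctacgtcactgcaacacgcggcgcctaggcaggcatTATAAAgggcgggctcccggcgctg
Ankrd1: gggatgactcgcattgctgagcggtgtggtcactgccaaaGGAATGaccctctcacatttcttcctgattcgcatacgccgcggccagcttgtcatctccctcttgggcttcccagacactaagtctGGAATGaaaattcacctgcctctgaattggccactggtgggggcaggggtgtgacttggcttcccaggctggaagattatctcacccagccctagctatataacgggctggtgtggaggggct
Amotl2: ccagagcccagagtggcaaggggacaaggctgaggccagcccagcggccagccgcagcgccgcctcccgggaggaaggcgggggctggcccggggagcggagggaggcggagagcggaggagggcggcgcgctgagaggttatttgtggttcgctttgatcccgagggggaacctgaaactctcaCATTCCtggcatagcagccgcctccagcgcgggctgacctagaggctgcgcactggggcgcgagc

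Ccn1 (ENSMUSG00000028195, chromosome 3, 145646976 to 145649981, minus strand) was a gene of smooth muscle and fibroblasts. Its sham level was 131 CPM in smooth muscle-like cells (105 to 161), above the other 5 classes without overlap. Fibroblast-like cells at 51.2 CPM (46.8 to 55.9) and the vascular endothelial-like class at 50.0 CPM overlapped. Mesothelial-like cells had 20.3, epithelial-like cells 4.90 and macrophage-like cells 2.28 CPM. In the colotomy library smooth muscle-like cells had 179 CPM (95.1 to 306) and fibroblast-like cells 102 CPM (90.9 to 114), then epithelial-like cells 46.8, vascular endothelial-like cells 29.2, mesothelial-like cells 18.6 and macrophage-like cells 8.11 CPM.

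Ccn2 (ENSMUSG00000019997, chromosome 10, 24595442 to 24598683, plus strand) followed a like order. Sham levels went in separate steps from 97.6 CPM in smooth muscle-like cells (75.3 to 124) to 32.6 CPM in fibroblast-like cells (29.1 to 36.4) and 19.1 CPM in vascular endothelial-like cells (13.4 to 26.5). Epithelial-like, mesothelial-like and macrophage-like cells had 4.08, 3.50 and 1.42 CPM. Colotomy levels were 137 CPM in smooth muscle-like, 86.0 in fibroblast-like and 72.9 in vascular endothelial-like cells, with overlapping intervals, and at most 9.35 CPM elsewhere. Of all Ccn2 UMIs in kept cells, fibroblast-like cells held 85.4% in the colotomy library and 62.9% in the sham library, and of all Ccn1 UMIs 79.6% and 55.4%. These shares of a whole library also follow from how many cells of each class it holds.

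Ankrd1 (ENSMUSG00000024803, chromosome 19, 36111961 to 36120099, minus strand) was close to absent. All kept cells held 10 UMIs in the colotomy library and 20 in the sham library. Of the latter, 15 were in smooth muscle-like cells, at 22.5 CPM (12.6 to 37.1), where the colotomy library had 1 UMI. Fibroblast-like cells had 3 UMIs against 0, and epithelial-like cells 6 against 0. All 6 lay in an epithelial-like cluster of 21 colotomy and 18 sham cells, numbered 25 and led by Tm4sf4, Onecut1, Ambp, Clu and Spp1. No ratio is given for fibroblast-like cells, where both counts are at or below the floor of 3 counts.

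Amotl2 (ENSMUSG00000032531, chromosome 9, 102716672 to 102733418, plus strand) was spread over 3 classes at like levels. Sham values were 112 CPM in mesothelial-like (95.3 to 131), 103 in vascular endothelial-like (89.1 to 119) and 91.3 in fibroblast-like cells (85.3 to 97.5). Smooth muscle-like cells at 45.0, epithelial-like cells at 7.89 and macrophage-like cells at 2.42 CPM followed in separate steps. Colotomy values in the same order were 192, 153, 135, 41.2, 51.4 and 13.2 CPM.

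Lats2 (ENSMUSG00000021959, chromosome 14, 57689662 to 57758388, minus strand), the inhibiting kinase, had the smallest fold between its highest and lowest of the 6 classes among the members in the sham library. It ran from 91.4 CPM in vascular endothelial-like (78.3 to 106) and 85.4 in mesothelial-like cells over 66.0 in smooth muscle-like and 64.4 in fibroblast-like cells to 48.3 in macrophage-like and 34.0 CPM in epithelial-like cells. Lymphocyte-like cells had 56.1 CPM (53.2 to 59.1), within that range, while goblet-like cells had 14.2 CPM and plasma cell-like cells 14.3 CPM. Colotomy levels were 80.2, 112, 27.5, 71.2, 41.6 and 16.4 CPM in vascular endothelial-like, mesothelial-like, smooth muscle-like, fibroblast-like, macrophage-like and epithelial-like cells.

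Axl (ENSMUSG00000002602, chromosome 7, 25757273 to 25788705, minus strand) was a fibroblast gene in both libraries. Fibroblast-like cells had 479 CPM in the sham library (465.7 to 493) and 406 CPM in the colotomy library (384 to 429.9), above the next class without overlap. Smooth muscle-like cells had 203 and 220 CPM, mesothelial-like cells 106 and 161, macrophage-like cells 71.2 and 127, the vascular endothelial-like class 70.7 and 94.8, and epithelial-like cells 32.7 and 65.5 CPM. Of the 6 classes it was the 1 member with its highest level in fibroblast-like cells in either library.

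Between the libraries, members of the group were higher in fibroblast-like cells after colotomy, led by Ccn2. Ccn2 stood at 86.0 against 32.6 CPM, 2.64 times the sham level (2.23 to 3.12), and Ccn1 at 102 against 51.2 CPM, 1.99 times (1.72 to 2.30). Piezo1 was 1.91 times (1.56 to 2.33), Tead1 1.84 times (1.62 to 2.09) and Yap1 1.65 times the sham level (1.33 to 2.03). Wwtr1 at 1.43 times (1.22 to 1.66) and Amotl2 at 1.48 times (1.31 to 1.67) were above 1 but short of 1.5-fold. Lats2 was 1.11 times (0.943 to 1.30), and Axl was lower, at 0.848 times (0.795 to 0.903). In the 407 and 1582 cells that held Y-linked RNA but none of Xist, the log2 ratio of Yap1 was 0.20, short of the fold, and that of Ccn2 1.58. With the level in T and B lymphocyte-like cells subtracted, Piezo1 was left at -11.2 CPM after colotomy and 2.43 CPM after sham. No ratio could then be formed. The colotomy lymphocyte level rests on few UMIs, and whether it stands for free RNA shared by all classes was not tested. Counting as called a ratio of at least 1.5-fold with 10 or more UMIs over both libraries, 5 of the 9 measured members were higher and 0 lower. Of the 14583 genes measured in these cells by the same rule, 16.9% were higher and 19.3% lower. The median log2 ratio was 0.72 over the members and -0.03 over all genes.

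The fibroblast-like cells of the libraries lay in different clusters, and the ratios within clusters were not those of the whole. Cluster 6 (leading genes Ptn, Timp1 and Col12a1) held 2426 of the colotomy cells and 334 of the sham cells, and cluster 3 (Inmt, Gdf10, Abca8a) held 505 and 3374. Cluster 9 (Pi16, Efhd1, Pla1a) held 671 and 1410, and cluster 21 (Adamdec1, Bmp5) 28 and 410. A cluster mostly of 1 library may be that library and not a type. Within cluster 6, 4 of 9 measured members were at least 1.5-fold higher and 0 lower, against 19.9% and 14.2% of all genes. These were Ccn2 (106 against 38.4 CPM, 2.75 times), Ccn1 (129 against 54.1 CPM, 2.39 times), Amotl2 (2.32 times) and Piezo1 (1.96 times). Within cluster 3, 1 of 9 was higher and 0 lower, against 19.7% and 19.1% of all genes. That gene was Piezo1, at 1.92 times the sham level (1.14 to 3.06). Within cluster 9, 2 of 9 were higher and 1 lower, against 17.6% and 22.4% of all genes, with Ccn2 at 1.71 times (0.931 to 3.0) and Amotl2 at 1.78 times (1.40 to 2.24).

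The direction of Ccn1 differed by cluster. It was lower after colotomy in cluster 9, at 47.7 against 82.5 CPM (0.579 times, 0.367 to 0.876), and stood at 29.4 against 37.2 CPM in cluster 3 (0.792 times, 0.389 to 1.45). Axl, lower in the class as a whole, was 1.26 times the sham level in cluster 6 (1.06 to 1.51), 1.09 times in cluster 3 and 1.06 times in cluster 9. Its level differed by cluster, at 867 and 820 CPM in cluster 9, 404 and 370 in cluster 3 and 291 and 230.5 CPM in cluster 6 of the colotomy and sham library. With the colotomy clusters weighted by UMIs as in the sham library, a calculation added after seeing the data, the ratios were 1.63 for Ccn2, 1.62 for Piezo1, 1.47 for Amotl2, 1.39 for Tead1, 1.21 for Yap1, 1.14 for Wwtr1, 1.10 for Axl, 1.06 for Lats2 and 0.842 for Ccn1. Ccn2 and Piezo1 were then past 1.5-fold, and the other members were not. For Ccn1 and Axl the ratio of the class as a whole thus lay on the other side of 1 from the ratio at an equal mix of clusters. No interval was formed for the weighted ratios. They lean most on cluster 3, which held 57.0% of the UMIs of sham fibroblast-like cells but only 505 colotomy cells. Counting error may therefore carry them across 1 or 1.5-fold.

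**Figure D3:**
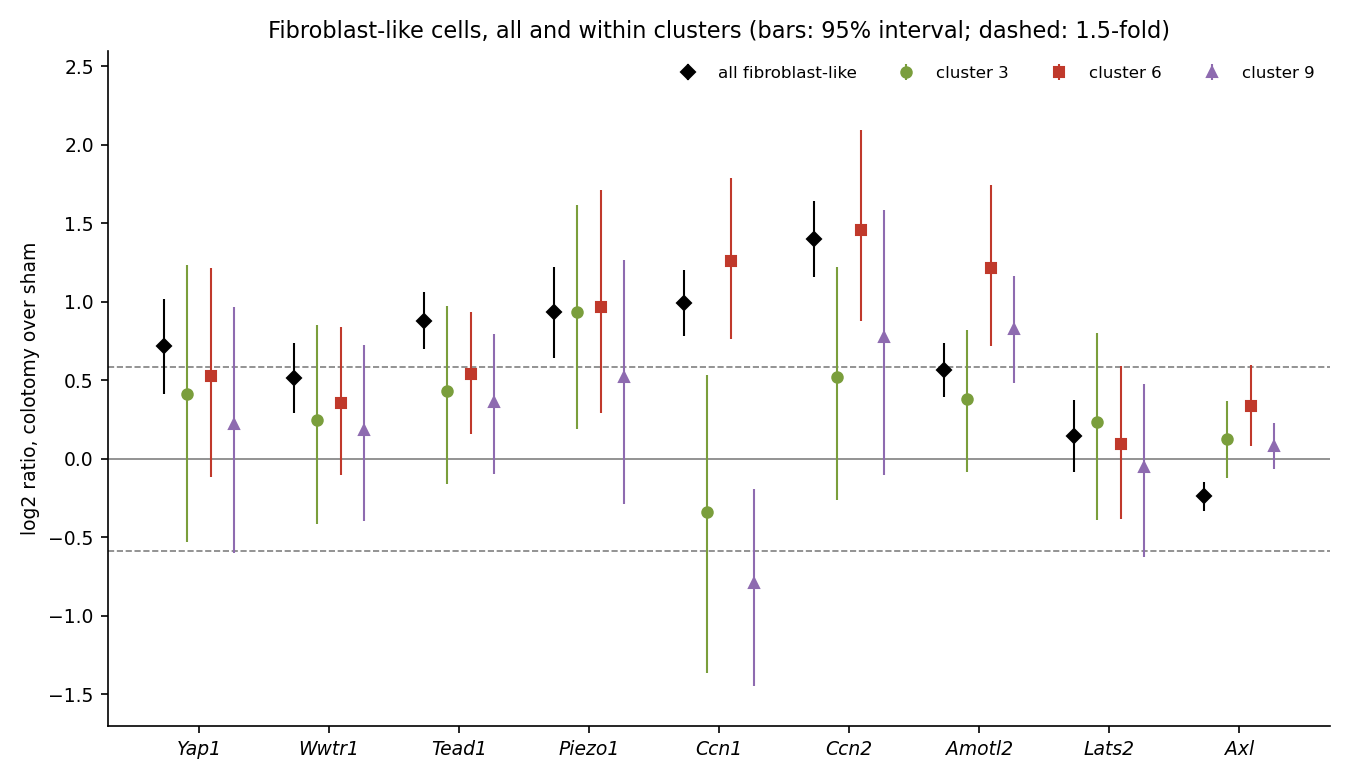
Log2 ratio of colotomy over sham CPM (vertical axis) of 9 members in all fibroblast-like cells (diamonds) and within clusters 3 (circles), 6 (squares) and 9 (triangles), with exact intervals for counting error and dashed lines at 1.5-fold. Ccn1 lies above 0 in the whole class and in cluster 6 and below 0 in clusters 3 and 9, and Axl lies below 0 in the whole class alone.

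Markers of many other classes and immediate early genes also differed between the libraries, not those of smooth muscle and B cells alone. In fibroblast-like cells the 12 smooth muscle markers summed to 625 CPM after colotomy and 206 CPM after sham, with 10 of 12 at least 1.5-fold higher. The 9 B cell markers summed to 716 and 2294 CPM there, with 9 of 9 lower. Of all genes measured in these cells 16.9% were higher and 19.3% lower. Neutrophil markers (6 of 7 measured) and monocyte markers (7 of 9) were also mostly higher, with 0 lower. T cell markers (10 of 10) and erythroid markers (5 of 5 measured) were lower. The 23 immediate early and dissociation genes, which tissue digestion can induce, summed to 3592 and 3141 CPM, with 6 higher and 1 lower. By cluster their sums were 3408 and 2284 CPM in cluster 6, 3969 and 3073 in cluster 3, and 4058 and 3577 in cluster 9. Of 3 genes of the list looked up after the values were seen, Egr1 stood at 220 against 489 CPM in cluster 9, 297 against 420 in cluster 3 and 311 against 221 in cluster 6. Fos stood at 166 against 215, 348 against 235 and 312 against 246 CPM in the same clusters, and Atf3 at 13.4 against 15.8, 10.7 against 18.7 and 15.9 against 11.4 CPM. Egr1 was thus lower after colotomy in clusters 9 and 3 and higher in cluster 6, while Fos was lower in cluster 9 alone. Atf3 had 44 UMIs in all colotomy fibroblast-like cells, too few to read a direction by cluster. These 3 genes do not stand for the list. The part of these markers and genes in the result was not tested.

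Shares of cells were read at 1 depth, after thinning each cell to 1000 UMIs, which left 741 of 3630 colotomy and 4503 of 5528 sham fibroblast-like cells. Tead1 stood at 13.9% after colotomy (11.5% to 16.6%) against 6.82% after sham (6.10% to 7.59%), and Ccn1 in 10.4% (8.29% to 12.8%) and 4.49% (3.90% to 5.13%). Ccn2 was found in 5.80% and 2.78%, Yap1 in 5.53% and 2.82%, and Piezo1 in 5.13% and 2.73%. For these 5 the intervals of the libraries were apart. Thinned to 500 UMIs, where all 3630 and 5528 cells remain, Yap1 overlapped (2.29%, 1.83% to 2.83%, against 1.66%, 1.34% to 2.04%), and Amotl2 was apart at 6.39% and 4.70%. Wwtr1 at 8.10% and 5.75%, Amotl2 at 10.4% and 8.77% and Lats2 at 6.61% and 6.64% overlapped, and Axl was found in fewer colotomy cells, 26.0% (22.9% to 29.4%) against 35.8% (34.4% to 37.2%). Ankrd1 was found in 0 of 741 and 0 of 4503 cells, which at the limit of 3 counts allows shares of cells with a UMI of up to 0.405% and 0.0666%, and by the exact interval 0.497% and 0.0819%.

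In lymphocyte-like cells the same sham shares (11509 cells at that depth, median 1073 UMIs against 1534 in fibroblast-like cells before thinning) were 0.0956% for Ccn2, 0.165% for Ccn1, 0.209% for Amotl2, 0.217% for Yap1 and for Wwtr1, 0.408% for Tead1 and 0.878% for Axl. Lats2 at 5.58% and Piezo1 at 2.6% had intervals that overlapped those of sham fibroblast-like cells, while goblet-like cells at the same depth had 1.79% (1.18% to 2.6%) and 1.06% (0.608% to 1.72%), below both. In the sham library the lymphocyte-like level of these genes was thus above that of goblet-like cells, and its origin was not tested. Only 12 lymphocyte-like cells of the colotomy library reached the depth, with 0 UMIs of any member. At 3 counts this allows up to 25% of cells and by the exact interval 26.5%. Without thinning, at median depths of 718 and 1534 UMIs, no member had a higher share with intervals apart, as in Ccn1 with 6.64% and 6.66% and Tead1 with 9.70% and 11.1%.

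**Figure D4:**
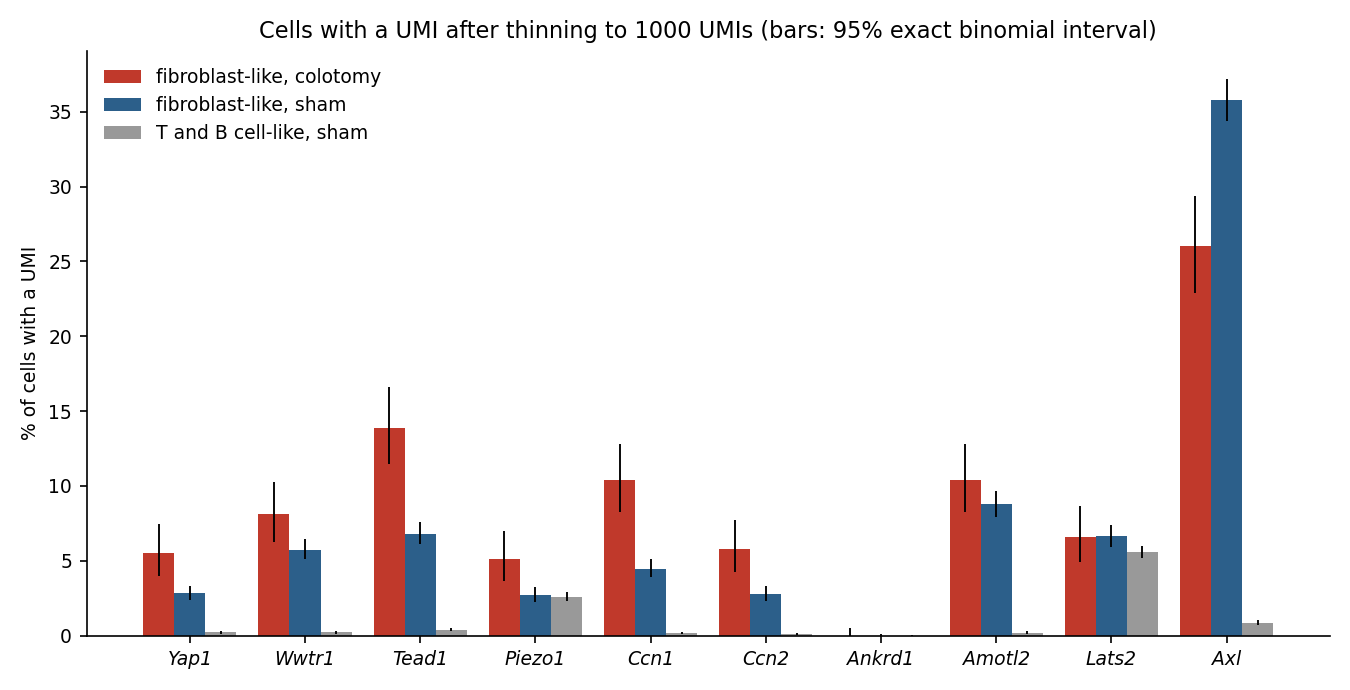
Percent of cells with a UMI (vertical axis) of each member after thinning to 1000 UMIs, in fibroblast-like cells of both libraries and in sham lymphocyte-like cells, with exact binomial intervals as black lines. Yap1, Tead1, Piezo1, Ccn1 and Ccn2 have higher shares after colotomy with intervals apart, Axl has a lower one, and Lats2 and Piezo1 of sham fibroblast-like cells lie near the lymphocyte-like cells.

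Ccn1 and Ccn2 were found together in cells of the colotomy library. At the thinned depth Ccn1 was present in 15 of 43 fibroblast-like cells with Ccn2, 34.9% (21% to 50.9%), and in 8.88% of cells without it (6.88% to 11.2%). In the sham library the shares were 8.80% (4.48% to 15.2%), from 11 of 125 cells, and 4.36% (3.78% to 5.01%), which overlap. Other pairs were apart in the sham library, such as Axl with Yap1. Axl was in 48.0% of cells with Yap1 (39.1% to 57.1%) and 35.4% of those without (34.0% to 36.9%). In both libraries Ccn1 went with immediate early RNA: cells above the median of 2 such UMIs had Ccn1 in 14.8% (11.2% to 18.9%) and the other cells in 6.43% (4.2% to 9.34%) of the colotomy library, against 6.10% and 2.95% in the sham library. Ccn2 differed less by the same split, at 6.53% and 5.14% after colotomy and 3.0% and 2.56% after sham, with overlapping intervals. Axl also differed by the split in the sham library, at 40.1% and 31.7% with intervals apart. In the colotomy library its 29.3% and 23.1% overlapped. Ccn2 was also concentrated in few cells: its 257 colotomy UMIs came from 171 cells, 1 of which held 16, while the 137 UMIs of Yap1 came from 133 cells with at most 2 each. Of fibroblast-like cells at this depth, 22.8% of the colotomy library (19.8% to 26.0%) and 17.5% of the sham library (16.4% to 18.6%) held 2 or more members. These cells are not replicates of an operation, and the intervals treat them as independent.

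In macrophage-like cells 6 of 9 measured members were at least 1.5-fold higher after colotomy and 0 lower, against 19.9% and 21.6% of all genes. All of them except Axl rest on few UMIs. With the lymphocyte-like level subtracted 7 of the 9 members gave no ratio. In the sham library Yap1, Tead1, Amotl2 and Lats2 were then at -0.237, -1.09, -0.144 and -7.83 CPM. Wwtr1 and Ccn2 were left at 0.417 and 0.222 CPM there. Piezo1 was left at 0.133 CPM in the colotomy library, whose lymphocyte-like level rests on few UMIs. Tead1 had 21 against 25 UMIs (21.3 against 3.56 CPM, 5.98 times, 3.18 to 11.1), with a log2 ratio of -0.18 where cells were placed singly by their markers. Amotl2 had 13 against 17 (5.44 times), Wwtr1 10 against 17 (4.19 times), Yap1 6 against 11 (3.88 times) and Ccn1 8 against 16 (3.56 times). Axl, a receptor by which macrophages take up dying cells, stood at 127 against 71.2 CPM (1.78 times, 1.45 to 2.17) and at 1.54 times within cluster 5, which held 1082 of the colotomy and 2067 of the sham cells. Cluster 5 had 5 monocyte markers beside 8 macrophage ones. At resolution 2 a monocyte-like cluster held 360 colotomy and 821 sham cells. A macrophage-like cluster led by Mmp12 and Spp1 held 362 and 105 there. The mix of cells within cluster 5 may thus differ between the libraries. Over all macrophage-like cells Piezo1 was 1.38 times the sham level (1.04 to 1.82) and Lats2 0.861 times (0.607 to 1.19). The 12 fibroblast markers summed to 2321 CPM in these cells after colotomy and to 281 CPM after sham, with 12 of 12 higher, and 12 of 12 smooth muscle markers were higher too (197 and 51.8 CPM). Immediate early genes summed to 7208 and 3783 CPM. Their part in the result was not tested.

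In vascular endothelial-like cells 3 of 9 members were higher and 1 lower, against 27.6% and 21.6% of all genes. Ccn2 was 3.81 times (1.69 to 7.84) and Wwtr1 2.14 times the sham level (1.44 to 3.08), with Tead1 at 1.58 times (0.698 to 3.16) and Ccn1 at 0.584 times (0.156 to 1.54). The direction turned for Tead1 in cells of 1000 UMIs or more (log2 ratio -0.63) and for Ccn1 in cells with Y-linked RNA alone (0.39). Fibroblast markers summed to 9969 and 2337 CPM in these cells, 11 of 12 higher, and their part was not tested.

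In mesothelial-like cells 2 of 8 members were higher and 1 lower, against 23.1% and 24.6% of all genes. Amotl2 was 1.71 times (1.13 to 2.53) and Axl 1.51 times (0.958 to 2.31), and Yap1, with 4 colotomy UMIs, 0.632 times the sham level (0.166 to 1.71). Each of the 3 turned under an alternative, Amotl2 to a log2 ratio of -0.97 and Axl to -0.16 with cells placed singly, and Yap1 to 0.28 in cells of 1000 UMIs or more. Fibroblast markers summed to 16187 and 9898 CPM there, with 7 of 12 higher. In smooth muscle-like cells 2 of 10 were higher, Yap1 and Piezo1, and 2 lower, Ankrd1 and Lats2, against 27.4% and 24.7% of all genes, and each interval of the 10 included 1. With cells placed singly, Yap1 and Piezo1 of smooth muscle turned to log2 ratios of -0.72 and -0.13. The 92 colotomy cells held 72749 UMIs in all, and fibroblast markers were at 9828 and 3997 CPM.

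In epithelial-like cells 6 of 9 members were higher and 1 lower, against 27.2% and 21.0% of all genes. Ccn1 had 20 UMIs against 18, which at unequal depth was 9.54 times the sham level (4.79 to 19.1), Amotl2 was 6.52 times (3.57 to 11.7), Piezo1 2.39 times (1.25 to 4.29), Axl 2.0 times (1.28 to 3.04), and Lats2 0.481 times (0.189 to 1.02). Axl turned to a log2 ratio of -0.11 in cells of 1000 UMIs or more, Tead1 (1.66 times) to -0.47 under 10% mitochondrial UMIs, and Ccn2 (2.29 times) to -0.87 at resolution 0.5. Ccn1 rested on cluster 25: 18 of its 20 colotomy UMIs were in 8 of the 21 cells of that cluster, whose 18 sham cells had none. In cluster 8, with 401 and 1680 cells, Ccn1 was 0.999 times the sham level (0.112 to 4.17), while Amotl2 was 5.00 times (2.47 to 9.73), Piezo1 2.5 times, Axl 2.10 times and Lats2 0.439 times (0.158 to 0.982). All 12 fibroblast markers were higher in epithelial-like cells after colotomy, summing to 6414 and 1478 CPM, and their part was not tested.

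The 7 lists of related genes, 140 in all, gave the surroundings of the members in fibroblast-like cells. There 134 were measured, 45 at least 1.5-fold higher and 4 lower. These and the list ratios below are of the class as a whole, whose mix of clusters differed between the libraries. Cluster 6 held 66.8% of its colotomy cells and 6.04% of its sham cells. In some clusters more list genes were lower, as given in the last section. How far the mix sets the ratio of each list was not tested. Among TEAD partners and cofactors 5 of 8 were higher and 0 lower, against 16.9% and 19.3% of all genes, and the median log2 ratio was 0.84 beside -0.03 over all genes. Tead2 stood at 15.7 against 6.0 CPM (2.62 times) and Runx1, a factor that binds YAP, at 161 against 69.0 CPM (2.33 times), while the repressing cofactor Vgll4 was 0.896 times the sham level. Of 32 YAP and TAZ targets besides the members 13 were higher and 2 lower (median 0.50). The largest ratios were those of Ddah1, which degrades methylarginines (6.38 times), and Ajuba (6.04 times), and, among genes with at least 50 UMIs, the smallest were those of the vasoconstrictor gene Edn1 (27.1 against 48.0 CPM, 0.564 times) and Nt5e (0.689 times).

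Of 21 Hippo kinases and regulators 4 were higher and 1 lower (median 0.23), against 16.9% and 19.3% of all genes. The higher share of this list, and that of the channels below, was near that of all genes. Ajuba and Wtip, related LIM proteins that bind LATS kinases, were 6.04 and 1.95 times the sham level, and the kinase gene Stk4 was 0.492 times (36.8 against 74.8 CPM, 0.399 to 0.602) and Nf2 0.760 times. Of 11 measured mechanically gated channels besides Piezo1 2 were higher, Piezo2 at 72.6 against 30.8 CPM (2.35 times, 1.97 to 2.81) and Trpv4 at 1.98 times (median 0.11), with Kcnk2 at 0.803 and Trpc1 at 0.868 times. Focal adhesion and actomyosin genes were 10 higher and 0 lower of 29 (median 0.29), from the adaptor Bcar1 (3.39 times) and the actin crosslinker Actn1 (3.14 times) to Itga11 (0.728 times) and Diaph1 (0.689 times).

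Cofactors and targets of SRF and MRTF, the other actin-sensing transcription pathway, were 8 higher and 0 lower of 13 (median 0.84). The shares of all genes beside each of these lists are the same, 16.9% higher and 19.3% lower. Its contractile genes Actg2 (17.4 against 1.86 CPM, 9.34 times) and Tagln (231 against 31.8 CPM, 7.27 times) had the largest ratios, and they are also among the smooth muscle markers given above. Srf itself was 0.736 times (0.470 to 1.12) and Mrtfb 0.961 times the sham level (0.698 to 1.31). Immediate early and dissociation genes were 6 higher and 1 lower of 23 (median 0.26), with Ier3 (7.52 times) and Hspa1b (1.88 times) at the top and Egr3 (0.356 times) and Myc (0.677 times) at the bottom. Ajuba, Ptpn14 and Vcl each stand in 2 lists.

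**Figure D5:**
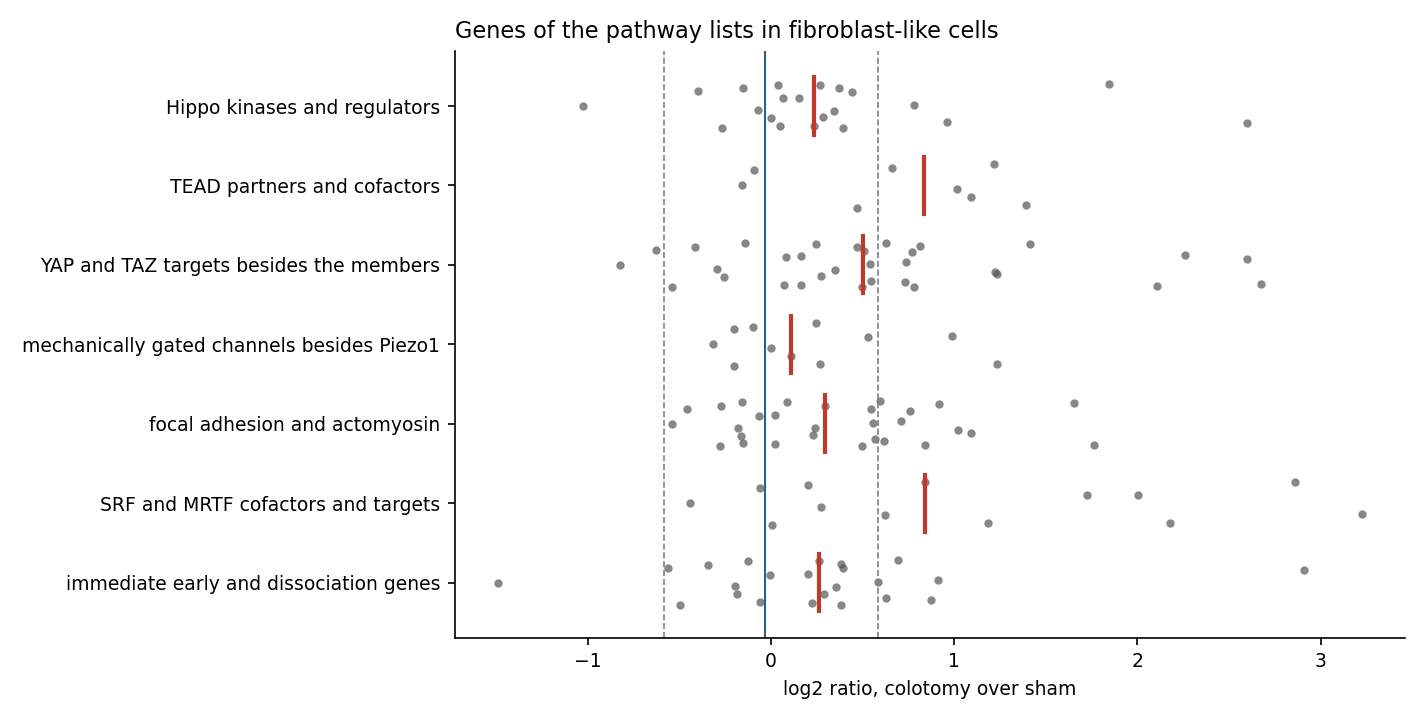
Log2 ratio of colotomy over sham CPM in fibroblast-like cells (horizontal axis) for each measured gene (points) of 7 pathway lists (vertical axis), with red bars at list medians, a blue line at the median of all genes (-0.03) and dashed lines at 1.5-fold. The medians of TEAD partners and of SRF and MRTF genes lie at 0.84, and those of the other lists between 0.11 and 0.50.

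Over 27 sums of a class in a library with at least 50 cells, the pattern of each member was compared with that of 13662 genes by Pearson correlation of log2(CPM + 10). The points share libraries, and classes of the same library share its depth and free RNA, so the values are a description. Yap1 was most like Parva, which encodes a focal adhesion protein (0.96), Wwtr1 like Ehd2 (0.96) and Tead1 like Pam (0.95), with Parva next (0.95). Ccn1 was most like Klhdc8b (0.92), Ccn2 like Smarca1 (0.93), Amotl2 like Nynrin (0.94), followed by the caveolar genes Cavin1 and Cavin3 (0.94 each), Axl like Plxdc2 (0.96) and Lats2 like Ephx1 (0.87). Piezo1 had no close match, with 0.80 for Tmem30a. Among the members themselves Yap1 and Tead1 were most alike (0.92), then Ccn1 and Ccn2 (0.87) and Wwtr1 and Amotl2 (0.86), while Piezo1 and Axl had 0.14. Ankrd1, with 30 UMIs in all, was too low for this measure.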

How the data were processed

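Single-cell RNA libraries were made from 1 pool per operation, and the gene and hashtag UMI counts of each barcode were deposited as sparse matrices, raw and not normalized. The authors counted with Cell Ranger 6.0.0, per the file headers. STAR 2.5.1b and mm10 (GRCm38) are named in the submitters' processing notes, which also list Seurat and Space Ranger with no role.

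Cells needed 500 UMIs of genes, 300 detected genes and a mitochondrial percentage under 20. With scanpy 1.11.5, 2000 variable genes, 30 principal components and 15 neighbours gave 26 Leiden clusters at resolution 1, and 24 were named from 22 marker lists; 150 genes, the members and pathway lists included, were kept out of the clustering. Counts were summed by class and library and divided by the class total. Levels have exact Poisson, shares exact Clopper-Pearson and ratios exact conditional binomial intervals (scipy 1.17.1). A call needed 1.5-fold and 10 UMIs over both libraries. The colotomy library had 12002711 UMIs over 15547 barcodes and the sham library 74006762 over 44814, so colotomy values are the less precise. Ratios were checked on simulated counts. List genes were named by rule as the 2 largest and 2 smallest ratios per list among genes with at least 50 UMIs, of which 1 is not reported here. The members and lists were chosen with earlier results of these data known. Genes were placed by GRCm38 annotation and promoters taken from RefSeq.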

Additional observations from a re-analysis of the deposited data

Results flagged for a closer look

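Ccn1 stood out because its libraries differed in opposite directions in different cells. Its log2 ratio of colotomy over sham was 3.25 in epithelial-like cells (3.255 before rounding), 0.99 in fibroblast-like cells (0.9941), 1.83 in macrophage-like cells (1.832) and 1.26 in cluster 6 of the fibroblast-like cells (1.259), with intervals above equal levels. In cluster 9 of the fibroblast-like cells it was -0.79 (-0.7882), with an interval below equal levels. The difference between these ratios was not tested, since each group is 1 library. The epithelial value rests on 18 UMIs in 8 cells of cluster 25.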

How the results depend on the processing

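No paired analysis was possible because each group is 1 library, and for the same reason no library could be left out. The split by hashtag was not run, since the hashtags did not separate tissues. The 5 members past 1.5-fold higher in fibroblast-like cells became 1 within cluster 3, 2 within cluster 9, 1 at 2-fold and 2 with clusters weighted as in the sham library, and were 4 to 6 otherwise. The 0 lower became 1 within cluster 9. Over all classes, 29 pairs of member and class past the fold became 16 at 2-fold and 17 with at least 50 UMIs. The 1 member highest in colotomy fibroblast-like cells became 3 in cells of 1000 UMIs and 500 genes or more, 3 with cells placed singly by markers and 2 when thinned to 500 UMIs. The 5 members with a higher share became 0 with no thinning. Of the list genes, 45 higher became 24 at 2-fold, and 4 lower became 2 at 2-fold, 10 with at least 1000 UMIs, 15 in cells with Y-linked RNA and no Xist, 9 within cluster 3 and 16 within cluster 9.

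Log2 ratios that changed sign were, in fibroblast-like cells, Ccn1 at -0.34 in cluster 3, -0.79 in cluster 9 and -0.25 with sham weights, and Axl, short of the fold at -0.24, at 0.13, 0.34 and 0.08 in clusters 3, 6 and 9 and 0.14 with sham weights. With the lymphocyte-like level subtracted as if it were free RNA, Piezo1 of these cells was below 0 in the colotomy library and gave no ratio. The lymphocyte-like level of the colotomy library rests on few UMIs, and whether it is free RNA was not tested. With at least 1000 UMIs, mesothelial Yap1 was 0.28, endothelial Tead1 -0.63 and epithelial Axl -0.11. With cells placed singly, mesothelial Amotl2 was -0.97 and Axl -0.16, smooth muscle Yap1 -0.72 and Piezo1 -0.13, and macrophage Tead1 -0.18. In Y-linked cells endothelial Ccn1 was 0.39. Epithelial Tead1 was -0.47 under 10% mitochondrial UMIs and -0.36 thinned to 500 UMIs. Epithelial Ccn1 was -1.37 at resolution 0.5, -0.78 at resolution 2 and -0.0011 without cluster 25, and Ccn2 -0.87 at resolution 0.5. The cause was not tested. Taking the mean over cells, rescaling by the median ratio, or leaving out barcodes with both hashtags left 54 of 54 member ratios within their intervals. As the hashtag calls do not mark doublets, leaving those barcodes out is no check on doublets. In cells with Y-linked RNA and no Xist 18 of 33 lay outside them with the same sign or uncalled and 1 called ratio turned, and with cells placed singly 7 and 5 of 47 did so. The sham weighting and the removal of cluster 25 were chosen after seeing the data. Depth or cell number limits every class. Only 741 of 3630 colotomy fibroblast-like cells reached 1000 UMIs, and the smooth muscle-like cells of the colotomy library numbered 92.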
